A study of Mus musculus with 3 samples.

Results

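The Notch genes measured here are 4 ligands (Dll1, Dll3, Dll4 and Jag1), 3 receptors (Notch1, Notch2 and Notch3) and 3 target genes (Hes1, Hes5 and Hey1). They were chosen by gene symbol, and each of the 10 symbols matched 1 of the 32285 gene rows in the count matrices. Droplet single-cell RNA sequencing with 3′ chemistry, in which each molecule is counted once through a unique molecular identifier (UMI), was run on brainstem from 3 mice. A pair of B6(Cg)-Tyrc-2J/J mice, 6 weeks old at injection, had received 100000 cells of DIPG4423, a murine diffuse midline glioma line, and were left untreated for 3 weeks (tumour 1 and tumour 2). The third library came from brainstem of the same strain without a tumour (normal), at an age the labels do not give. The host is immunocompetent and all grafted cells derive from 1 line, whose driver alleles the labels do not name. Such gliomas arise mainly in children, in the brainstem and nearby midline structures.

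Notch signalling passes between touching cells. A ligand on one cell binds a receptor on its neighbour, the receptor is cut by an ADAM protease and then by gamma-secretase, and its intracellular part joins the DNA-binding protein Rbpj to switch on genes of the Hes and Hey families, which are transcriptional repressors. In the brain the pathway keeps neural progenitors undifferentiated and favours astrocyte fate, and in growing vessels Dll4 on tip cells restrains the sprouting of neighbouring endothelial cells.

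The genes lie on 6 chromosomes (GENCODE M21, GRCm38). The ligand genes are Dll1 at chr17:15367354-15376872, Dll3 at chr7:28293553-28302238, Dll4 at chr2:119325784-119335962 and Jag1 at chr2:137081456-137116644. The receptor genes are Notch1 at chr2:26457903-26516663, Notch2 at chr3:98013527-98150361 and Notch3 at chr17:32120820-32166852. The target genes are Hes1 at chr16:30064384-30067796, Hes5 at chr4:154960923-154962371 and Hey1 at chr3:8663359-8667256. Hes1, Hes5, Notch2 and Dll4 are on the plus strand and the others on the minus strand.

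The DNA just upstream of the genes was searched for the letters of known motifs. These were the core that Rbpj can bind and an E-box that proneural factors can bind. RefSeq promoter entries (GRCm38.p6) were matched for 8 of the 10 genes, and the 250 bases upstream of the start are printed 5′ to 3′ on the gene's own strand. Hes5 lies on chromosome 4 and its stretch is chr4:154960673-154960922, plus strand; capitals mark 2 copies of the Rbpj core motif, TGGGAA or its reverse complement TTCCCA, whose first bases lie 226 and 82 bases before the start. Dll1 lies on chromosome 17 and its stretch is chr17:15376933-15377182, minus strand; capitals mark 1 copy of the E-box CAGCTG, whose first base lies 132 bases before the start.
Hes5: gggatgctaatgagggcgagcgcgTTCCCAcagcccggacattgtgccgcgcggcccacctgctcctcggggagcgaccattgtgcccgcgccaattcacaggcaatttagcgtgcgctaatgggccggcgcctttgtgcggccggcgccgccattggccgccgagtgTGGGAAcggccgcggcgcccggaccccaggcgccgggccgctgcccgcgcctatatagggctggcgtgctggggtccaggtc
Dll1: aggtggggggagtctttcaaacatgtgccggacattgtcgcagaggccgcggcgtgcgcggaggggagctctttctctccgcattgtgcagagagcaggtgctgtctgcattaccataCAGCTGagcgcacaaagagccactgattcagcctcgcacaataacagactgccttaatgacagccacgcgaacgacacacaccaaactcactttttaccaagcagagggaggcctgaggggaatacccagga
Dll3 and Jag1 also held 1 CAGCTG each, 7 and 82 bases before the start, and Dll4, Notch1, Notch2 and Notch3 held neither motif in this window. Over all 32851 promoter entries of the same length, 21.6% held the Rbpj core motif on either strand and 13% held CAGCTG, a palindrome that reads the same on both strands; the motifs share no overlap by sequence. A match describes letters in the window and is not evidence of binding.

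Counts were analysed from 10551, 9391 and 3079 kept cells in tumour 1, tumour 2 and normal, holding 140540983, 145646714 and 11051741 UMIs, with medians of 8791, 11284 and 2394 UMIs per cell. The libraries shared 13 to 37 barcodes pairwise. Cells were clustered without the 10 Notch genes or 45 further pathway genes among the variable genes, and clusters were named from marker lists as "X-like". All 7 glial progenitor, 7 astrocyte, 6 endothelial and 6 microglia markers were higher in their class than in the other cells. This held in every library where the class was compared, and no marker was at 0. The same markers named the clusters, so these levels describe the classes and do not test their names. Glial progenitor-like cells were found only in the tumour libraries (4356, 2095 and 0 cells); they carried Xist at 1070 and 1059 CPM (UMI counts scaled to a sum of 1e+06) and 4 Y-linked genes at 2.03 and 4.30 CPM summed, whereas astrocyte-like cells carried Xist at 28.1, 20.2 and 0 CPM and the Y-linked genes at 423, 343 and 374 CPM. They are called graft cells here. No replicate stands behind the normal library, and p-values measure only the spread between the tumour pair.

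Dll3 was found mainly in graft cells. It encodes a divergent Delta-like protein that stays largely inside the cell and dampens Notch signalling rather than activating a receptor on a neighbour. Its level in the whole library was 55.6 CPM in tumour 1, 27.4 CPM in tumour 2 and 0.271 CPM in normal, where only 3 UMIs were counted, all in neuron-like cells. Both tumour libraries lay far above normal, and the pooled ratio was 152 with a 95% counting interval of 52.0 to 737. Normal held 0 glial progenitor-like cells, so in this ratio a trait of the graft and a trait of that cell type cannot be told apart. Graft cells held 96.5% and 96.4% of the Dll3 UMIs of tumour 1 and tumour 2. Among graft cells Dll3 stood at 75.9 and 58.6 CPM (67.3 ± 12.2, SD, n = 2), above every one of the other 11 classes ranked, those with at least 20 cells in both tumour libraries, none of which exceeded 14.4 CPM. Microglia-like cells, which should lack it, held 3.37 and 1.15 CPM, or 4.45% and 1.95% of the graft level, close to the 4.21% and 1.78% found for the progenitor receptor Pdgfra in the same cells. With each cell thinned to 1000 UMIs, 7.01% and 5.87% of graft cells had a Dll3 UMI (median depths before thinning 15875 and 21776 UMIs) against 0.411% and 0% of microglia-like cells (3857.5 and 7772), where 0 of 2605 cells were positive in tumour 2.

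Dll1, an activating Delta ligand of neural progenitors, measured 13.7 CPM in tumour 1, 6.17 CPM in tumour 2 and 5.70 CPM in normal. The tumour libraries differed 2.21-fold from each other, and tumour 2 was close to normal. Graft cells held 96.5% and 92.4% of the tumour counts, at 18.6 and 12.7 CPM. Neuron-like cells were the only other class to reach this range, at 5.26, 12.8 and 19.9 CPM on 3, 11 and 46 UMIs. With cells thinned to 1000 UMIs, neuron-like cells had the highest share of Dll1-positive cells, and at 2000 UMIs graft cells had it. Median depths in the tumour pair were 15875 and 21776 UMIs in graft cells and 2722 and 2144.5 in neuron-like cells. Of the 63 Dll1 UMIs in the normal library, 46 were in neuron-like cells and 11 in endothelial-like cells.

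Dll4, the ligand of endothelial tip cells, was a vessel transcript in all 3 libraries. Endothelial-like cells held 77.3%, 86.6% and 95.7% of its UMIs in tumour 1, tumour 2 and normal. Its level in them was 75.9, 115 and 71.7 CPM in the same order, and no other ranked class exceeded 5.81 CPM. In the whole library Dll4 was at 1.10, 6.98 and 6.33 CPM, so the tumour pair differed 6.37-fold and normal lay between them. Endothelial-like cells numbered 72, 218 and 144, or 0.68%, 2.32% and 4.68% of the kept cells in the same order. Their share was higher in tumour 2 than in tumour 1, as Dll4 was. It was highest in normal, where Dll4 was not highest. From whole-library sums alone, fewer cells of a type and less RNA per cell cannot be told apart. Endothelial-like cells held 1568489, 7684676 and 935097 UMIs, with medians of 8071.5, 20724 and 5263.5 UMIs per cell. The part of each in the whole-library Dll4 level was not tested. Graft cells held Dll4 at 0.171 and 0.534 CPM.

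Jag1, a Serrate-type ligand active in vessels and glia, was shared by several classes. Its whole-library level was 33.3, 37.3 and 14.7 CPM, with the tumour pair above normal. Graft cells were at 39.6 and 65.4 CPM in the tumour pair. Mural-like cells, named from pericyte and smooth muscle markers, were at 33.4 and 68.8 CPM there. Endothelial-like cells were at 44.0 and 56.6 CPM and astrocyte-like cells at 53.0 and 43.7 CPM. The ranges of these 4 classes overlapped. Their values in normal were 103 CPM in endothelial-like and 33.8 CPM in astrocyte-like cells, and endothelial-like cells held 58.9% of the normal Jag1 UMIs while graft cells held 84.1% and 78.9% of those in the tumours. Macrophage-like cells stood lower, at 15.2 and 9.0 CPM, but above microglia-like cells at 4.34 and 2.88 CPM. The mural-like class was mixed. When vessel cells were clustered again, 76 mural-like cells fell in a sub-cluster led by Timp1 and Mmp3. Its fibroblast markers stood above its mural markers (mean log2 level 3.17 against 1.93). In tumour 1 the mural-like class also held Xist at 160 CPM, 15.0% of the graft level. The part of such cells in the mural-like levels given here was not tested.

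**Figure D1:**
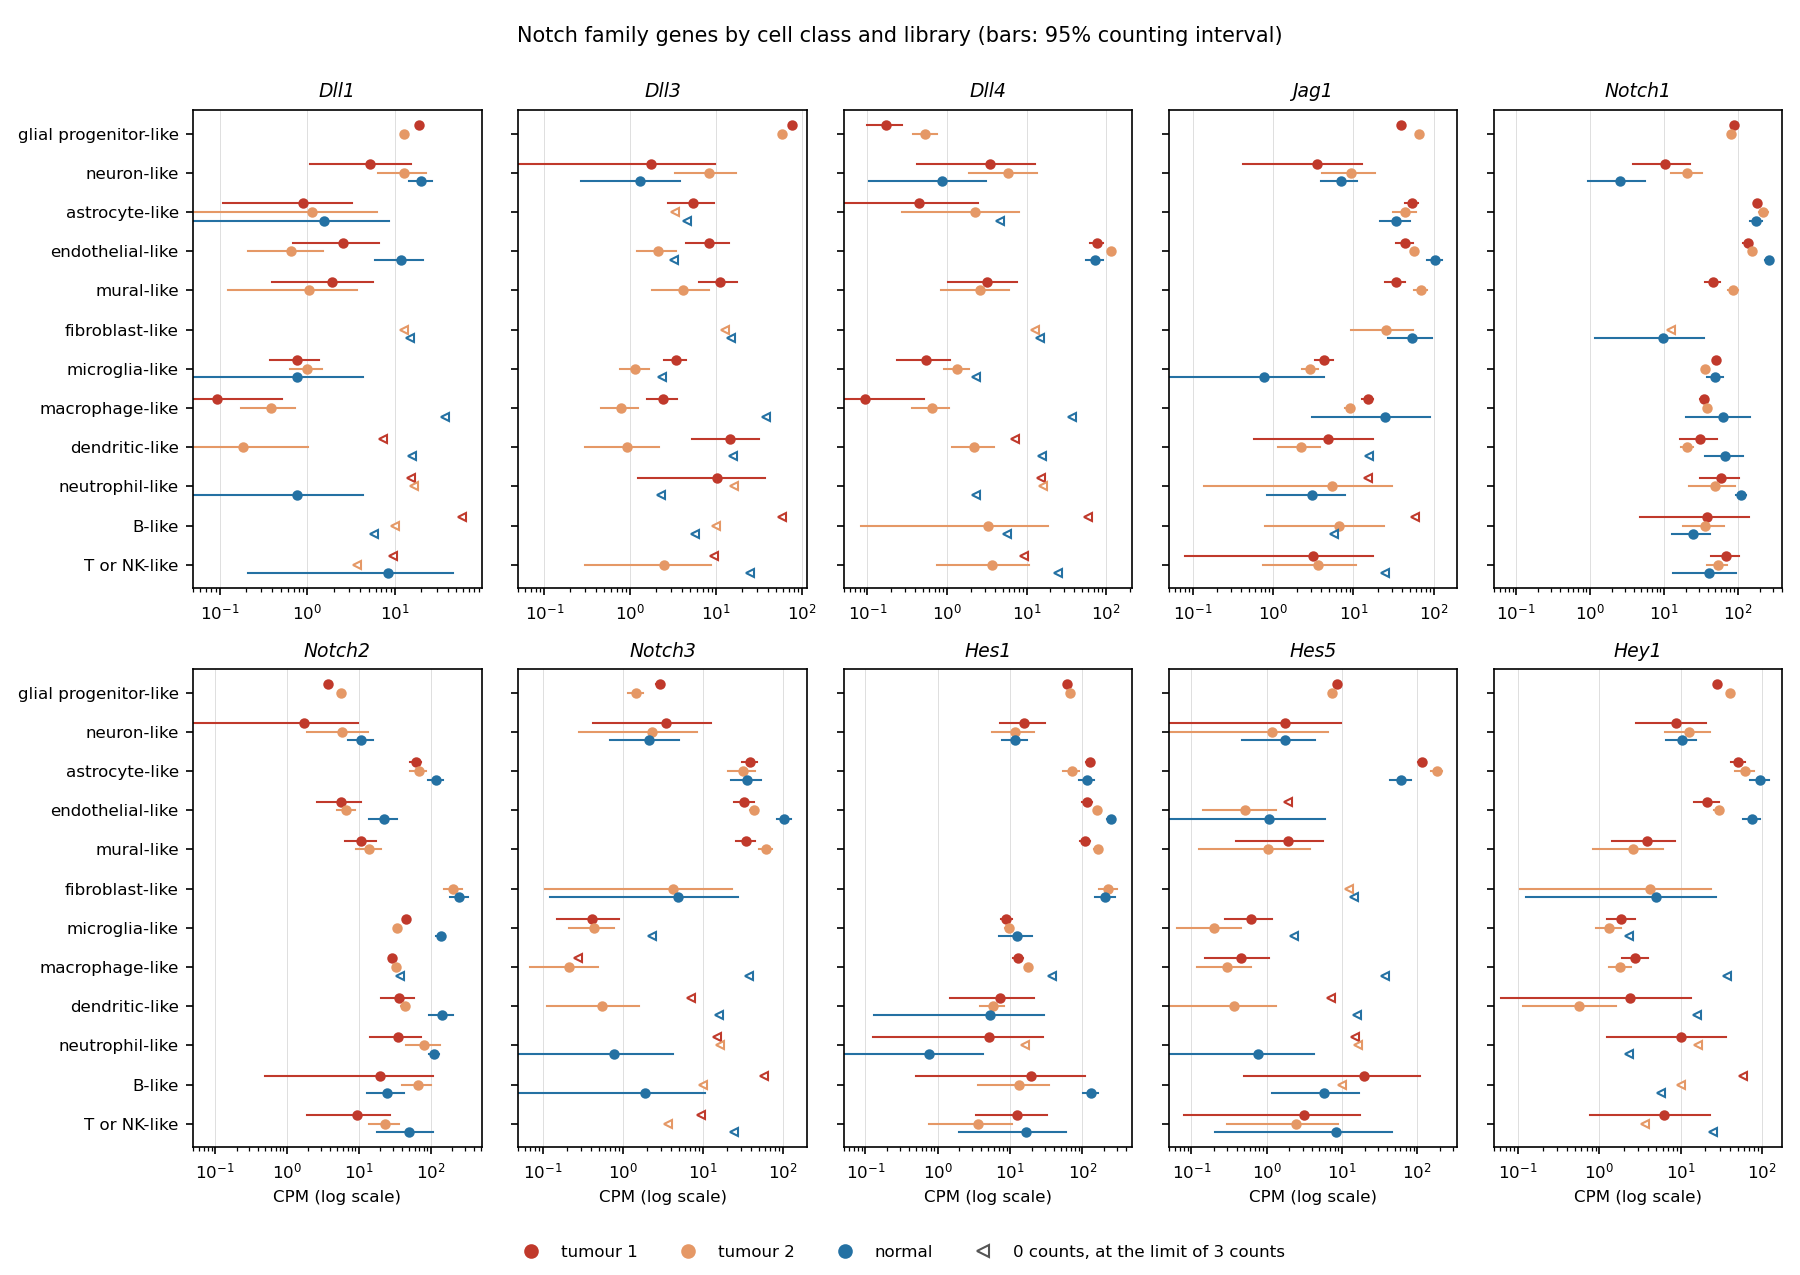
Level of each Notch gene (CPM, log axis) by cell class; points are libraries, bars are exact 95% counting intervals (they may run past the left edge of the axis), and open left-pointing marks stand for no count, drawn at the limit of 3 counts; only classes with at least 20 cells in a library are drawn for it. Dll3 is highest in glial progenitor-like cells of the tumours, Dll4 in endothelial-like cells and Hes5 in astrocyte-like cells, while Jag1, Notch1 and Hes1 are spread over several classes.

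Notch1, the main receptor of neural progenitors and endothelium, was found in most classes. Astrocyte-like cells carried it at 186, 223 and 180 CPM. Endothelial-like cells carried 137 and 160 CPM in the tumour pair, below the astrocyte-like cells without overlap, and 265 CPM in normal, above them. Graft cells came next at 90.8 and 81.6 CPM, and their range overlapped that of mural-like cells at 46.3 and 86.4 CPM. Microglia-like cells carried 50.7, 36.8 and 50.1 CPM. Neuron-like cells were low in every library, at 10.5, 20.9 and 2.60 CPM on 6, 18 and 6 UMIs.

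Notch2, a receptor with known roles in marginal-zone B cells, monocytes and dendritic cells, was low in the graft. Graft cells held it at 3.73 and 5.77 CPM, endothelial-like cells at 5.74, 6.77 and 22.5 CPM, and neuron-like cells at 1.75, 5.81 and 10.8 CPM. Astrocyte-like cells were at 62.3, 68.3 and 118 CPM, microglia-like cells at 45.0, 33.9 and 139 CPM and dendritic-like cells at 36.1, 44.0 and 143 CPM. In each of these 3 classes normal lay above both tumour libraries. Small classes were higher still: fibroblast-like cells reached 332, 206 and 250 CPM on 10, 49 and 51 UMIs from 8, 30 and 40 cells. Monocyte-like cells in normal were at 186 CPM from 174 cells.

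Notch3, the receptor of pericytes and vascular smooth muscle, was at 34.7 and 61.6 CPM in mural-like cells of the tumour pair, which held 64 and 149 such cells; the 5 mural-like cells of normal held 3 UMIs and give no usable level. Endothelial-like cells were at 33.2, 43.5 and 105 CPM and astrocyte-like cells at 38.7, 31.4 and 35.4 CPM, and the ranges of the 3 classes overlapped in the tumour pair. Graft cells were at 2.90 and 1.45 CPM.

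Among the targets, Hes1, a broadly used repressor, was high in vessel, astrocyte-like and fibroblast-like cells. Endothelial-like cells were at 116, 159 and 250 CPM, mural-like cells at 107 and 162 CPM in the tumour pair, and astrocyte-like cells at 126, 70.6 and 114 CPM. Graft cells were lower, at 61.4 and 68.2 CPM, and microglia-like cells were at 8.88, 9.71 and 12.3 CPM. Fibroblast-like cells were also high, at 133, 227 and 206 CPM on 4, 54 and 42 UMIs.

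Hes5, the target most closely tied to Notch activity in neural stem cells and radial glia, was concentrated in astrocyte-like cells at 116, 181 and 61.5 CPM. Graft cells held 8.62 and 7.46 CPM, but because they were many they held 72.2% and 70.7% of the Hes5 UMIs in the tumours, against 21.9% and 23.4% in astrocyte-like cells. In normal, astrocyte-like cells held 72.7%. Microglia-like cells were at 0.620, 0.197 and 0 CPM, where the count of 0 allows up to 2.31 CPM.

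Hey1, a target shared by endothelium and neural progenitors, was highest in astrocyte-like cells at 50.8, 61.6 and 93.8 CPM. Graft cells were at 27.9 and 40.6 CPM and endothelial-like cells at 21.0, 29.3 and 74.9 CPM, with overlap between these classes in the tumour pair. Mural-like cells held only 3.86 and 2.59 CPM, on 6 and 5 UMIs, although their Hes1 level was near that of endothelial-like cells. Graft cells held 90.2% and 86.0% of the Hey1 UMIs of the tumour libraries.

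The graft was not uniform for these genes. It formed 5 clusters, led by Pou3f1 and Lhfpl3 (2368 and 781 cells in tumour 1 and tumour 2), Nell2 and Cntn1 (312 and 126), Prss35 and Vegfa with hypoxia genes (874 and 611), Cenpf and Prc1 with G2 and M phase genes (705 and 434), and Papss2 and Serpina3n (97 and 143). Dll1 was at 20.9 and 15.5 CPM in the Pou3f1 cluster and at 12.7 and 11.6 CPM in the Prss35 cluster. It was lowest in the Papss2 cluster, at 6.42 and 4.79 CPM. Dll3 was at 87.6 and 71.3 CPM in the Pou3f1 cluster and at 56.7 and 41.6 CPM in the dividing Cenpf cluster, the lower of the pair in both libraries. The Papss2 cluster was split between the libraries, at 48.5 and 83.9 CPM for Dll3.

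Receptors and targets had other orders within the graft. Notch1 was highest in the Cenpf cluster in both libraries, at 110 and 94.9 CPM, against 85.5 and 76.9 CPM in the Pou3f1 cluster. The Nell2 cluster came next, at 97.0 and 90.8 CPM. In tumour 2 its counting interval (83.1 to 99.0 CPM) overlapped that of the Cenpf cluster (90.6 to 99.3 CPM). Hes5 was at 21.6 and 19.5 CPM in the Papss2 cluster, on 37 and 61 UMIs, and between 4.74 and 9.37 CPM in the other 4. These UMIs lay in 15.5% and 10.5% of its cells, so the level rested on few cells. With cells thinned to 1000 UMIs, 1.03% and 1.40% of them were positive. The highest other shares were 1.28% (Nell2 cluster, tumour 1) and 1.66% (Pou3f1 cluster, tumour 2). At 2000 UMIs the same shares were 1.03% and 2.86%, against 2.26% and 1.93%. Hes1 was lowest in the Papss2 cluster, at 31.5 and 52.3 CPM, so by CPM the pair of Hes targets was ordered oppositely there. The same cluster held the 4 Y-linked genes, which mark host cells here, at 8.18 and 14.0 CPM, against 1.27 to 4.20 CPM in the other 4, and Xist at 766 and 1035 CPM, against 984 to 1269 CPM; the part of host RNA in its Hes5 level was not tested. Hey1 was between 27.5 and 36.2 CPM in all 5 clusters of tumour 1 and between 29.7 and 48.7 CPM in tumour 2. Jag1 was higher in tumour 2 than in tumour 1 in each of the 5 clusters. These are levels of clusters made from the same cells and carry no test.

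**Figure D2:**
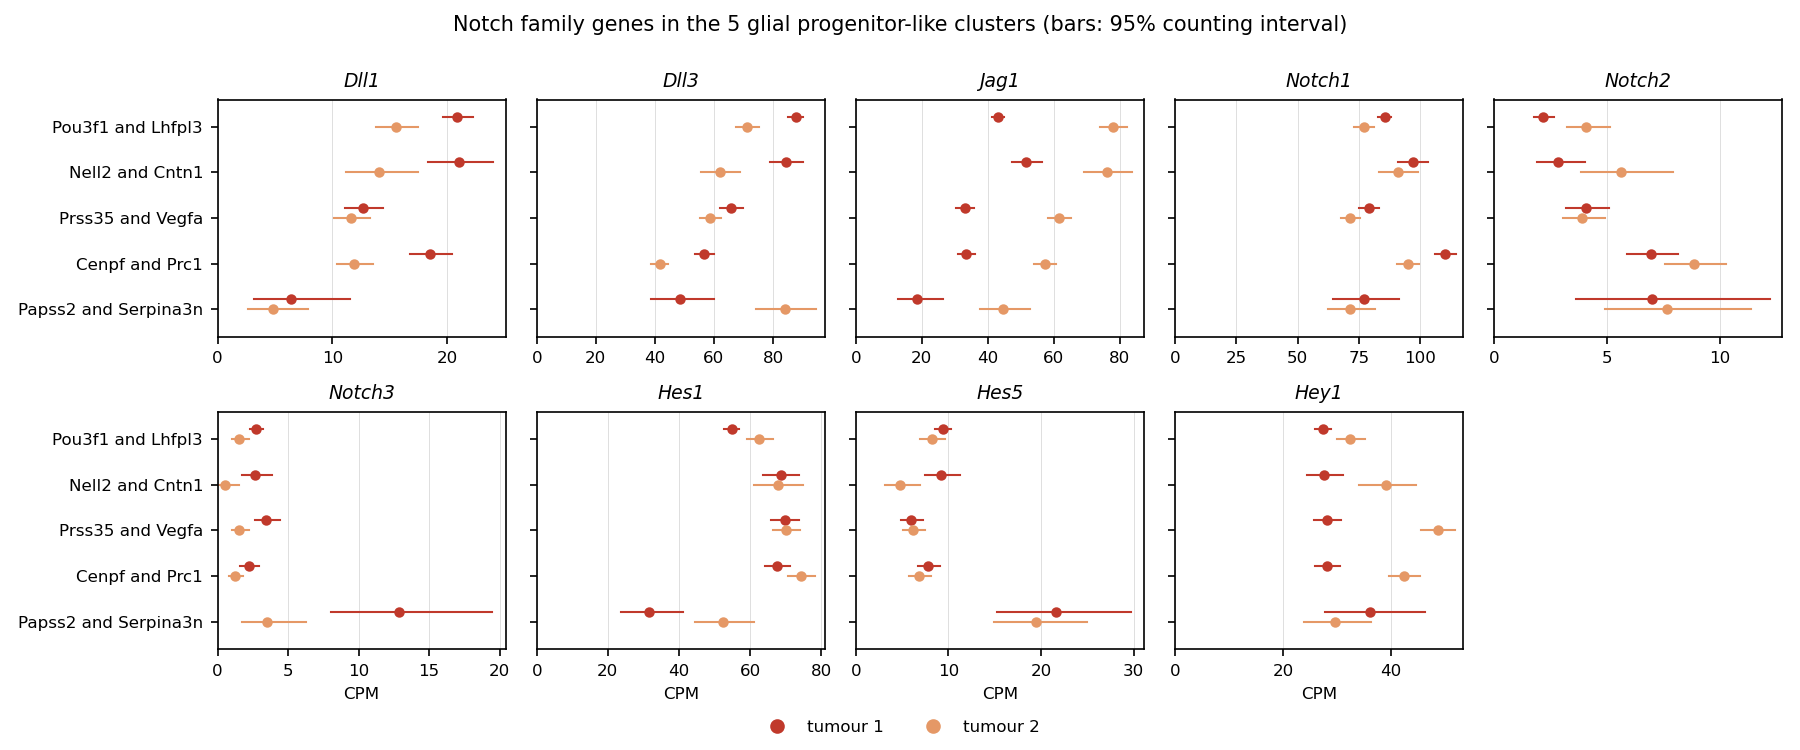
Level of 9 Notch genes (CPM, linear axes starting at 0) in the 5 glial progenitor-like clusters of tumour 1 and tumour 2; bars are exact 95% counting intervals. Dll1 is lowest and Hes5 highest in the Papss2 and Serpina3n cluster by CPM. Notch1 is highest in the Cenpf and Prc1 cluster in both libraries, but in tumour 2 its interval overlaps that of the Nell2 and Cntn1 cluster.

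Ligand and target transcripts were compared cell by cell in graft cells thinned to 5000 UMIs each (4242 and 2058 cells; 114 and 37 shallower cells left out). Hes1 was detected in 24.1% of Dll3-positive and 23.1% of Dll3-negative cells in tumour 1, and in 22.9% and 23.5% in tumour 2. Hes5 was detected in 3.61% and 4.11%, and in 3.16% and 3.87%. The exact 95% intervals overlapped for both targets in both libraries. Hey1 was detected in 11 of 119 Dll1-positive cells in tumour 2 (9.24%, interval 4.71% to 15.9%). The share was 17.8% of Dll1-negative cells there (16.1% to 19.6%), and the intervals did not overlap. In tumour 1 the same shares were 11.1% (8.10% to 14.7%) and 13.1% (12.0% to 14.2%), which did overlap. Dll3 itself was detected in 32.7% of Dll1-positive and 29.8% of Dll1-negative cells in tumour 1 and in 24.4% and 24.7% in tumour 2. Dll1 and Dll3 were each set against Notch1, Hes1, Hes5, Hey1, Jag1 and each other in both libraries. Of all these comparisons, only Dll1 with Hey1 in tumour 2 had intervals that did not overlap. The part of the graft clusters in it was not tested. The intervals of these shares cover counting error only, and cells of 1 library are not replicates.

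Tumour and normal brainstem were then compared on UMI counts summed per library, with edgeR's quasi-likelihood test and Benjamini-Hochberg adjustment over all 20467 genes tested. All 10 Notch genes passed the low-count filter; 2 were called higher and 1 lower, against 12.7% of all genes called higher and 8.13% lower. The median log2 change was 0.83 over the 10 genes and 0.14 over all genes tested. The main log2 changes use edgeR's TMM scaling, which the CPM values leave out, so their sizes differ from ratios of CPM. The TMM factors here were 0.921, 0.840 and 1.29 in tumour 1, tumour 2 and normal. Dll3 was higher by 7.78 on the log2 scale (SE 0.77, adjusted p = 0.0107) and Jag1 by 1.82 (SE 0.33, adjusted p = 0.0234). Notch2, at 12.2, 20.2 and 86.1 CPM, was lower, with a log2 change of -1.84 (SE 0.41, adjusted p = 0.0354). The tumour pair lay on one side of normal for each of these 3 genes.

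The other 7 genes did not pass. Hey1, at 21.9, 21.2 and 15.0 CPM, had a log2 change of 1.08 (adjusted p = 0.0695), and Notch3, at 3.61, 4.19 and 13.2 CPM, had -1.20 (adjusted p = 0.122). Notch3 was called lower, at -1.76 (adjusted p = 0.0317), when libraries were scaled by total count alone, a scaling that moved the median of all genes to -0.41. Notch1, at 80.7, 65.2 and 75.6 CPM, changed sign between these scalings (0.50 and -0.05). Hes1 was at 51.6, 48.3 and 44.5 CPM (0.72, adjusted p = 0.123), Hes5 at 8.44, 4.75 and 4.98 CPM (0.94, adjusted p = 0.274), Dll1 had a log2 change of 1.33 (adjusted p = 0.174) and Dll4 one of -0.05 (adjusted p = 0.982). The mix of cells behind these sums differed: graft cells were absent from normal, and endothelial-like, neuron-like and leukocyte classes held other shares of it.

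Within classes, 10 classes had at least 20 cells in each library and were tested one by one. Endothelial-like cells had the most Notch genes called. Of 9 genes tested there, 5 were lower and none was higher at the adjusted threshold, against 14.5% of 11372 genes called lower and 21% higher. The median log2 change was -0.74 over the 9 genes, and it is the same with Dll3, which had no count in normal, set at its bound; over all genes it was 0.06. Hey1, at 21.0, 29.3 and 74.9 CPM, had a log2 change of -1.26 (SE 0.31, adjusted p = 0.00659). Notch2 had -1.54 (SE 0.52, adjusted p = 0.0326) on 9, 52 and 21 UMIs, and Dll1 had -3.10 (SE 1.03, adjusted p = 0.0310) on 4, 5 and 11 UMIs. Without tumour 2 the Dll1 value was -1.91. Notch3 had -1.15 (SE 0.28, adjusted p = 0.00582) and Jag1 -0.74 (SE 0.27, adjusted p = 0.0491). Notch1 (-0.57, adjusted p = 0.0731), Hes1 (-0.58, adjusted p = 0.0846) and Dll4 (0.70, adjusted p = 0.0861) did not pass, nor did Dll3 (adjusted p = 0.115).

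Different vessel cells filled this class in the tumour and normal libraries. When endothelial-like and mural-like cells were clustered again, 60.5% of the normal endothelial-like UMIs came from a sub-cluster led by S100a8 and Ifi44 and 32.6% from one led by Slc6a20a, which also carried the pericyte gene Atp13a5. In the tumours, 41.4% and 50.0% came from a sub-cluster led by Cpa1 and Ube2c and 21.3% and 26.0% from one led by Nts and Angpt2, neither of which held a normal cell. A further 21.3% and 4.77% came from one led by Acan and Xist, which carried graft transcripts, and 7.62% and 9.33% from one led by the myeloid genes Mpeg1 and Ctss. The summed level of the 6 endothelial markers moved too, at 6057, 5418 and 10279 CPM, but the markers did not move as a group. Flt1 (1051, 1381 and 3768 CPM), Ly6c1 (312, 420 and 2895 CPM), Cdh5 and Kdr were highest in normal. Cldn5 was lowest in normal (3280, 2324 and 1865 CPM), and Pecam1 in normal lay between the tumour libraries (595, 498 and 556 CPM).

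These sub-clusters differed in Notch genes. Dll4 was at 114 and 226 CPM in the Nts and Angpt2 cells, 62.1 and 89.2 CPM in the Cpa1 and Ube2c cells, and 77.8 and 65.0 CPM in the S100a8 and Slc6a20a cells of normal. Angpt2 is a known tip-cell gene, and the Nts and Angpt2 cells were also low in Notch3, at 2.99 and 9.0 CPM on 1 and 18 UMIs. Notch3 was at 218 CPM in the Slc6a20a cells of normal, 54.8 CPM in the S100a8 cells of normal, and 50.0 and 64.1 CPM in the Cpa1 and Ube2c cells. Hey1 was at 83.1 and 71.5 CPM in the S100a8 and Slc6a20a cells of normal and at 12.0 and 38.5 CPM in the Nts and Angpt2 cells. In the tumours Notch1 was highest in the sub-cluster led by Hbb-bs and Xdh, at 442 and 312 CPM from 4 and 36 cells.

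**Figure D3:**
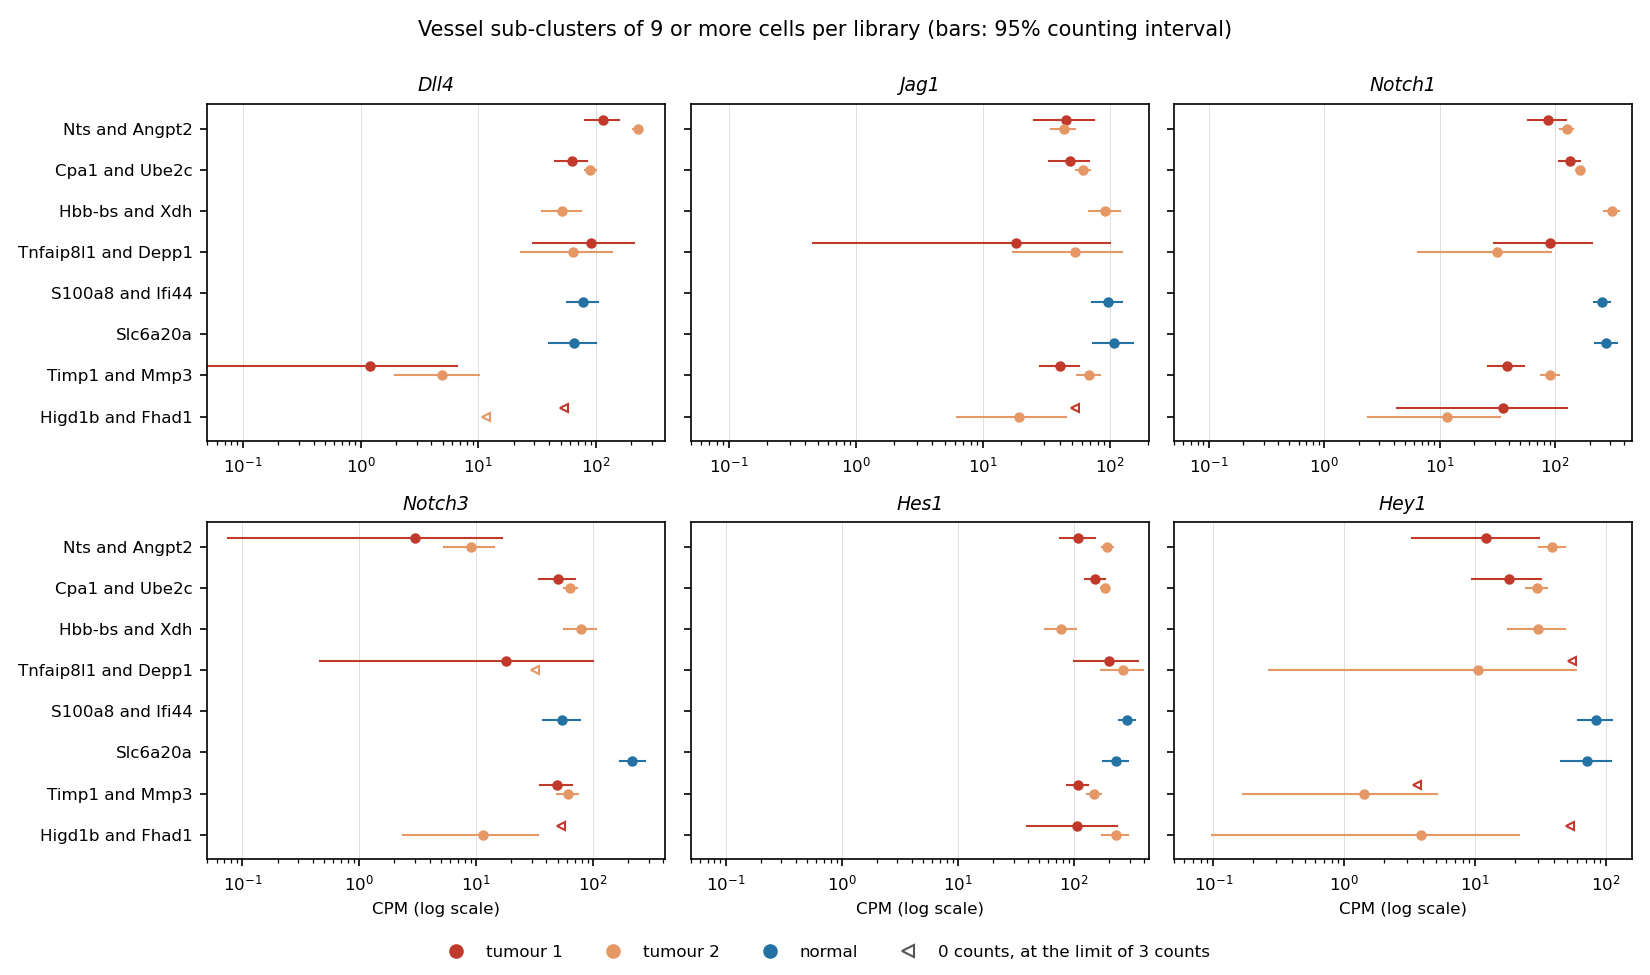
Level of Notch genes (CPM, log axis) in sub-clusters of endothelial-like and mural-like cells with at least 9 cells in a library; bars are exact 95% counting intervals that may run past the left edge, and open marks stand for no count, drawn at the limit of 3 counts. Among the sub-clusters drawn, Dll4 is highest in the Nts and Angpt2 cells of the tumours, and Notch3 reaches 218 CPM in the Slc6a20a cells of normal.

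Leaving out the sub-clusters led by Mpeg1 and Ctss, by Acan and Xist and by Slc6a20a, an alternative chosen after seeing the data, left 59, 185 and 111 endothelial-like cells. The sub-cluster led by S100a8 was kept and made up 109 of the 111 cells of normal; S100a8 and S100a9, known as neutrophil genes, are among its leading genes, all 6 endothelial markers were detected in it, and the part of the neutrophil genes in these results was not tested. Notch3 was then at 42.4, 46.8 and 54.5 CPM with a log2 change of 0.00 (adjusted p = 0.999), so its call rested on the sub-clusters left out. Jag1 also lost its call (-0.58, adjusted p = 0.144), and 3 genes rather than 5 were lower, where 14.8% of 10330 genes were called lower and 21.3% higher. Hey1, at 16.2, 31.8 and 76.9 CPM, kept its call (-1.28, adjusted p = 0.00184), as did Notch2 (-2.09, adjusted p = 0.0193) and Dll1 (-2.83, adjusted p = 0.0342). Dll4, at 76.6, 126 and 75.3 CPM, was then called higher (0.75, adjusted p = 0.0475), with tumour 1 next to normal. With DESeq2's Wald test in place of edgeR, on all endothelial-like cells, none of the 5 calls was kept: Hey1 (adjusted p = 0.0959), Notch3 (0.0758), Notch2 (0.289) and Jag1 (0.290) did not pass, and Dll1 was given no adjusted p (unadjusted p = 0.0682). Jag1 also lost its call without a low-count filter, with either other cell filter and at clustering resolution 2.0 (adjusted p = 0.0538 to 0.0885), and Dll1 without a cell filter (adjusted p = 0.0630).

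In astrocyte-like cells 7 Notch genes were tested. Hes5 was higher (log2 change 1.19, SE 0.31, adjusted p = 0.00381) and Notch2 was lower (-0.92, SE 0.29, adjusted p = 0.0292), where 4.07% and 3.05% of 9906 genes were called higher and lower. Both tumour libraries lay on one side of normal for each. Hey1 did not pass (-0.81, adjusted p = 0.0806), nor did Jag1 (0.49), Notch1 (0.12), Hes1 (-0.21) or Notch3 (-0.03), whose adjusted p-values lay between 0.494 and 0.983. The Hes5 call was lost with DESeq2 (log2 change 1.21, adjusted p = 0.149) and with counts thinned to equal depth (1.14, adjusted p = 0.444), where 0 genes of the class were called and 1061 had an unadjusted p under 0.05. The Notch2 call was lost after the same thinning (-0.81, adjusted p = 0.408), without a low-count filter (-0.83, adjusted p = 0.111) and without a cell filter (-0.74, adjusted p = 0.0809), and DESeq2 gave it no adjusted p (-0.91, unadjusted p = 0.0683). The fit for this class put no weight on a gene's own spread.

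The Hes5 counts of astrocyte-like cells were concentrated in few cells. A UMI was present in 108 of 450, 40 of 123 and 28 of 194 cells, and 5 or more UMIs in 14, 9 and 1. The 45, 13 and 20 cells with the most Hes5 UMIs held 71.5%, 67.3% and 80.0% of the Hes5 UMIs. A positive cell held on average 2.41, 4.05 and 1.43 UMIs, with highest values of 12, 18 and 5. After thinning to 1000 UMIs the shares of positive cells were 8.26%, 10.7% and 8.38%, so the share in tumour 1 lay next to normal although its CPM was higher. Median depths were 4702, 7257 and 2968.5 UMIs, and their part in the difference of levels was not tested beyond this thinning.

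In microglia-like cells Notch2 was the 1 Notch gene called of 8 tested. It was lower in the tumours, at 45.0, 33.9 and 139 CPM (log2 change -1.38, SE 0.21, adjusted p = 0.00522), where 5.75% of 14546 genes were called lower and 11.5% higher. The call held in every alternative that tested it, DESeq2 included, and the thinned shares of cells were 5.38%, 3.80% and 12.1% (median depths 3857.5, 7772 and 1647 UMIs), against 0.483% and 0.716% in graft cells. Different clusters filled the class: in the tumours mainly cells led by Lag3 and Gpr84 (745 and 1550 cells) and by Siglech and Adap2 (1537 and 775), in normal mainly cells led by Gpr34 and P2ry12 (620). Within the Siglech cluster, the only one of these with over 50 cells in each library, Notch2 was at 65.1, 68.1 and 137 CPM, the last on 18 UMIs. The Lag3 cells were at 38.7 and 28.6 CPM and the Gpr34 cells of normal at 146 CPM. The other microglia-like genes did not pass, among them Jag1, at 4.34, 2.88 and 0.771 CPM, which had 1 UMI in normal.

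**Figure D4:**
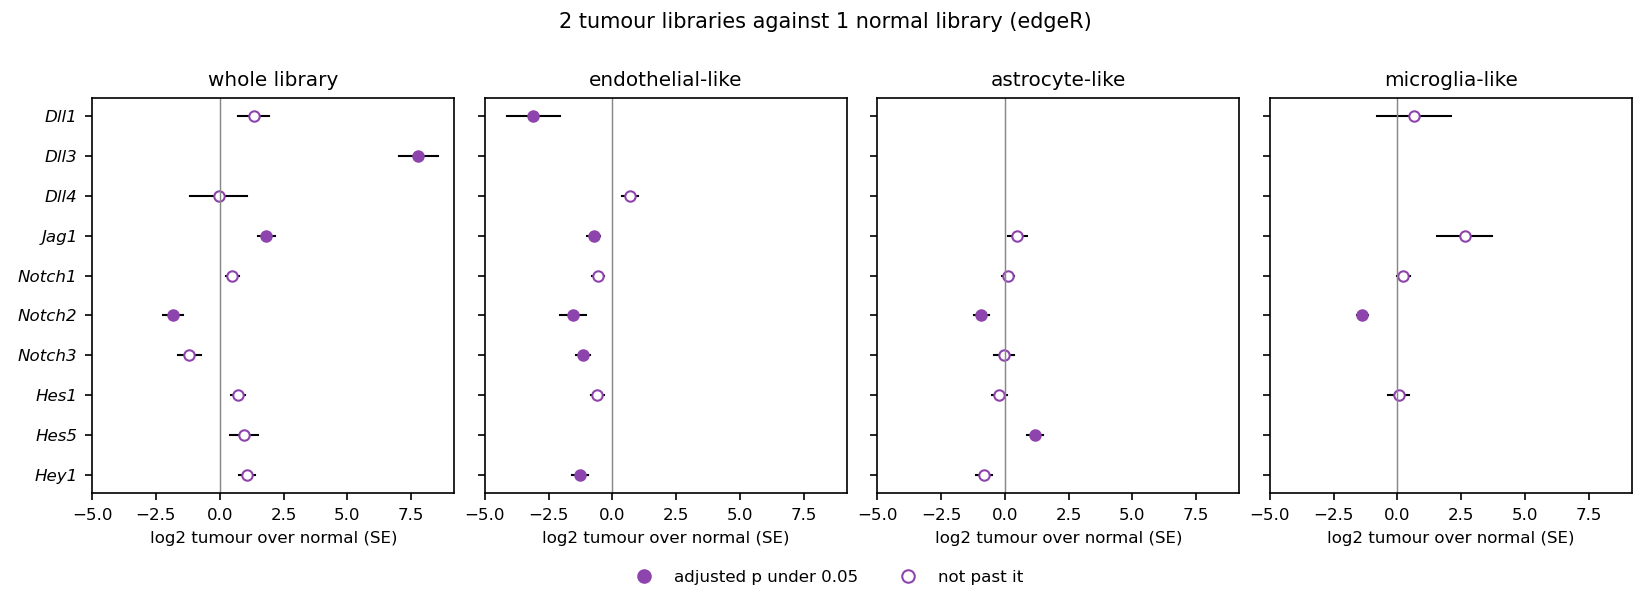
Log2 change of tumour over normal from edgeR's quasi-likelihood fit, for each Notch gene in the whole library and in endothelial-like, astrocyte-like and microglia-like cells, with standard errors as bars and filled marks where the adjusted p was under 0.05; genes with no count in normal are not drawn. Dll3 and Jag1 are higher and Notch2 is lower in the whole library, and Notch2 is also lower in microglia-like cells.

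Among the remaining classes 1 gene was called. In B-like cells Hes1 was at 19.5, 13.3 and 129 CPM on 1, 4 and 68 UMIs from 20, 96 and 228 cells (log2 change -2.97, SE 0.70, adjusted p = 0.000749), where 4.5% of 6026 genes were called lower and 3.85% higher. The call was lost at clustering resolution 2.0 and when Notch genes were allowed among the clustering genes (-2.64, adjusted p = 0.211 in both), where 0 genes were called in this class, and DESeq2 gave it no adjusted p (-2.99, unadjusted p = 0.0769). Notch2 in dendritic-like cells (-1.32, adjusted p = 0.0557) and Notch1 in neutrophil-like cells (-1.14, adjusted p = 0.0982) did not pass, in classes where 8.35% and 7.42% of genes were called in either direction. No Notch gene passed in macrophage-like, neuron-like, choroid plexus-like or T or NK-like cells, where edgeR's test called 1.47%, 3.84%, 1.8% and 1.69% of genes in either direction and 1973, 1346, 324 and 860 genes had an unadjusted p under 0.05. Over the 10 classes, 1 pairing of a Notch gene and a class was called higher and 8 lower. Notch2 was counted among the 8 in each of astrocyte-like, endothelial-like and microglia-like cells. The shares of all genes called are those given for each class.

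Whether the tumour effect on a gene differed between classes was tested in 1 fit over class sums (14994 genes). Hes1 in B-like cells differed from the mean effect of the other classes by -3.94 (SE 0.97, adjusted p = 0.0312), where 1.77% of genes were called, and Notch1 in neutrophil-like cells by -2.95 (SE 0.62, adjusted p = 0.0203), where 1% were called. That mean includes a class with no count in normal for each gene, macrophage-like cells for Hes1 and choroid plexus-like cells for Notch1, whose fitted effects have no bound. Without both classes, an alternative chosen after seeing the data, the differences were -3.30 (adjusted p = 0.0304) and -2.35 (adjusted p = 0.00737). Of 59 pairings of a Notch gene and a class, 27 had an SE over 100 and give no usable comparison, among them Hey1, Notch3, Dll1 and Dll4 in endothelial-like and Hes5 in astrocyte-like cells. No other pairing passed, where 1.51% of genes were called for endothelial-like, 0.06% for microglia-like and 0% for astrocyte-like cells, so the endothelial, astrocyte and microglial calls above are not shown to be particular to those classes. Sums of 1 library share its animal, so the spread in that fit is partly between classes and not between animals.

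Of 45 other genes of the pathway, 44 were tested in the whole library and 4 were higher and none lower, against 12.7% of all genes higher and 8.13% lower. They included Hey2, another target, Dner, an atypical ligand, and Psenen, a gamma-secretase subunit. Hey2 was at 45.4, 25.5 and 5.43 CPM (3.24, adjusted p = 0.0169) and Dner at 84.4, 53.4 and 21.2 CPM (2.24, adjusted p = 0.0200). In graft cells Dner was at 113 and 112 CPM and Hey2 at 61.1 and 53.1 CPM.

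Within classes, endothelial-like cells had 5 of 37 pathway genes higher and 7 lower, against 21% and 14.5% of all genes of the class. Nrarp, a feedback inhibitor of Notch signalling that is itself a target, rose from 10.7 CPM in normal to 105 and 123 CPM in the tumours (log2 change 3.68, SE 0.38, adjusted p = 9.70e-06), opposite in sign to Hey1, and it was called in every alternative tested, with values of 3.42 to 4.32. Psenen (0.75) was also higher, as was Dlk1, which had no count in normal and for which the pooled ratio was at least 2.43-fold. Dll3 in endothelial-like cells of tumour 1 stood at 10.9% of its graft level. Mib1, the ubiquitin ligase that ligand-sending cells need, was lower (-1.06, adjusted p = 0.00289), as were Mib2 (-1.81), Dtx3 (-1.15), Maml1 (-1.12), Pofut1 (-1.02), Adam17 (-1.0) and Itch (-0.77).

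Microglia-like cells had 4 of 42 pathway genes higher (Dtx2, Psen2, Aph1a and Psenen, the last 3 of gamma-secretase) and 3 lower (Numb, Maml1 and Itch), against 11.5% and 5.75% of all genes of the class. Numb, an inhibitor of Notch receptors, was at 88.3, 91.9 and 338 CPM (log2 change -1.46, adjusted p = 0.00488). Astrocyte-like cells had none of 33 called by edgeR's test, in a class where 1947 genes had an unadjusted p under 0.05; their Lfng, a glycosyltransferase that modifies Notch receptors, was at 351, 377 and 372 CPM. Lfng was higher in dendritic-like cells, with no count in normal, and Dlk2 was lower in neuron-like cells (-1.74, adjusted p = 0.0181).

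The genes whose levels ran most like each Notch gene were found over 27 sums of a class in a library (log2 of CPM + 1, 16806 genes). The sums share libraries, and the coefficients are descriptions. Dll3 was most like Krt1 (Pearson r 0.939) and Kcnmb4os2 (0.912). Dll4 was most like Rasip1 (0.946), Sox7 (0.934) and Grrp1 (0.929), the first pair being endothelial genes. Notch3 was most like Lama2 (0.931), Heyl (0.914) and Atp13a5 (0.905), and Hey1 like Maoa (0.934), Nfib (0.915) and Prnp (0.911). Hes5 was most like Gm44386 (0.938), Gpr179 (0.927) and Mro (0.924), and Jag1 like Adamts9 (0.892), Rhoj (0.877) and Zfp503 (0.872). The closest genes were less alike for Dll1 (Ptprr 0.877, Osbpl10 0.869, Sgcd 0.860), Notch2 (Prkcd 0.858, Tor1aip1 0.794, Il17ra 0.781), Hes1 (Epas1 0.831, Id3 0.829, Myo10 0.827) and Notch1 (S100a13 0.822, Selenot 0.820, Atxn7l3b 0.794). Among the Notch genes themselves, Notch3 and Hes1 had r 0.753, Jag1 and Hes1 0.740, Jag1 and Hey1 0.730, and Dll3 and Notch2 -0.576.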

How the data were processed

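Single-cell RNA was measured in 3 libraries, 2 from tumour-bearing brainstem and 1 from normal brainstem. The deposited matrices give raw UMI counts for each gene in each barcode. Per the file headers they were written by Cell Ranger 6.1.2. The submitters' processing notes name the build mm10. Per the labels' protocols, mice were perfused, tissue was ground and filtered, myelin was depleted with beads and red cells were lysed, which can lower oligodendrocyte and erythroid counts. All rows name a gene, and 0 columns were left unmapped.

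Cells with at least 500 UMIs, at least 300 genes and at most 15% mitochondrial UMIs were kept (9.71%, 9.57% and 26.3% of barcodes were over the mitochondrial limit), and Scrublet doublets (374, 254 and 50; expected rate 8%) were removed, in scanpy 1.11.5. Clustering used 2000 variable genes, 30 components, 15 neighbours and Leiden (igraph 0.11.9) at resolution 1.0, with no integration, and gave 31 clusters. Names needed a marker score of at least 1 and 3 markers detected in 10% of cells; they are rebuilt from 18 marker lists, 7 clusters with 4100 cells stayed unnamed, and vessel cells were sub-clustered after seeing the data. Counts were summed per library and class and tested with edgeR 4.0.16 (R 4.3.3; filterByExpr, TMM, adjusted p under 0.05); DESeq2 1.42.0 was an alternative. The fit has 1 residual degree of freedom, so it assumes the same spread for normal as for the tumour pair, and exact permutation of these 3 libraries could not fall below 1 in 3. Prior degrees of freedom were infinite in astrocyte-like, B-like, choroid plexus-like and neutrophil-like cells. Test code was tried on simulated counts. CPM intervals are exact Poisson, shares exact Clopper-Pearson at 95%, both for counting error only; a count of 0 allows 3 counts. The 10 genes are all named; pathway genes are named where called, up to 5 in each direction by size of the log2 change, and the rest of the 7 lower in endothelial-like cells were named after their values were seen. For each Notch gene the 3 genes most alike over sums of at least 50 cells are named. Some genes that these rules select are counted but not reported here by name. Members and lists were chosen with earlier results of these data known. Gene positions come from GENCODE M21 (GRCm38). Alternatives were other scalings, DESeq2, no low-count filter, thinning to equal depth, other cell filters, doublets kept, other clusterings, leaving out a tumour library, and 2 added after seeing the data. No label states a sequencing batch.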

Additional observations from a re-analysis of the deposited data

Results flagged for a closer look

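A pair of results was singled out because the tumour effect in a class differed from the mean effect of the other classes in a test of that difference. Hes1 in B-like cells differed by -3.94 on the log2 scale (edgeR's quasi-likelihood test, Benjamini-Hochberg adjusted p = 0.0312), with normal above both tumour libraries. It rests on 1, 4 and 68 UMIs. With library size alone the value was -3.91 (adjusted p = 0.0567), and with doublets kept -5.01 (adjusted p = 0.00248). The mean of the other classes includes macrophage-like cells, with no Hes1 count in normal; without these and choroid plexus-like cells, an alternative chosen after seeing the data, the value was -3.30 (adjusted p = 0.0304).

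Notch1 in neutrophil-like cells differed by -2.95 (adjusted p = 0.0203), with levels of 60.6, 48.9 and 112 CPM in tumour 1, tumour 2 and normal on 12, 9 and 145 UMIs. With library size alone the value was -2.08 (adjusted p = 0.724), and with doublets kept -1.95 (adjusted p = 0.0759). The mean of the other classes includes choroid plexus-like cells, with no Notch1 count in normal; without these and macrophage-like cells the value was -2.35 (adjusted p = 0.00737). The change within neutrophil-like cells alone did not pass (-1.14, adjusted p = 0.0982).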

How the results depend on the processing

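In the whole library, Dll3 and Jag1 stayed called higher and Notch2 lower in every alternative tested; the count of lower Notch genes was 2 with library size alone. Signs changed for Dll4 (0.0934 without a low-count filter, 0.48 without a cell filter, main value -0.05), Notch1 (-0.0511 with library size alone) and Notch3 in endothelial-like cells (0.000567 without the mixed sub-clusters, where 3 Notch genes were lower); except where the alternative left out cells or genes, the cause was not tested. Within classes, calls were counted as pairings of a Notch gene and a class. The 1 higher became 0 with DESeq2, 5 without a low-count filter and 0 after thinning to equal depth. It became 3 with stricter cell filters and 3 with doublets kept. The 8 lower became 1 with DESeq2, where 4 did not pass and 3 had no adjusted p, and 5 after thinning. The differences between classes fell from 2 to 0 with library size alone. All genes called were 503 in B-like cells (221 with DESeq2 size factors, 70 with DESeq2, 249 without a low-count filter, 157 thinned, 0 with Notch genes allowed in clustering and 0 at resolution 2.0), 705 in astrocyte-like cells (76 with DESeq2, 0 thinned, 340 with stricter filters, 1604 with doublets kept), 4035 in endothelial-like cells (1880 with DESeq2) and 2503 in microglia-like cells (1627 with DESeq2). The class with the highest share of positive cells was the same for 6 of 10 genes with cells thinned to 2000 UMIs as with cells thinned to 1000. It differed for Dll1, Notch2, Notch3 and Hes1. Dll1, Dll3, Dll4, Notch1, Hes5 and Hey1 had the same highest class by CPM in every clustering and cell filter. Leaving out a tumour library, with no test, gave 7.19 to 8.16 for Dll3, 1.66 to 1.88 for Jag1, -2.32 to -1.55 for Notch2, 0.66 to 1.75 for Dll1 and -2.04 to 0.68 for Dll4 in the whole library, and 0.88 to 1.50 for Hes5 in astrocyte-like cells. Of the remaining values of single genes, 293 kept direction and side of the threshold or moved by less than the spread, 20 lost a call, 6 gained one and 11 moved.

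No paired analysis was possible because the normal group has 1 library. Precision is limited by depth in the normal library, which holds 11051741 kept UMIs against 140540983 and 145646714, and by small classes.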

Other observations

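Some clusters of shallow cells stayed unnamed although their best-scoring marker list was clear, and their Notch genes are given as values. A cluster led by Tsix and Xist (305 and 116 cells in the tumours, 1 in normal), with progenitor markers and Xist at 6443 and 6302 CPM, held Dll3 at 55.9 and 57.1 CPM and Jag1 at 61.9 and 141 CPM on 31 and 32 UMIs. A cluster led by Fabp7 and Gng3 (684, 292 and 18 cells), also with progenitor markers, held Dll3 at 53.2 and 45.0 CPM and Hes1 at 72.0 and 49.7 CPM. A cluster led by Atp13a4 and Gm6145 (128, 20 and 103 cells), with all 7 astrocyte markers detected, held Hes5 at 35.5, 20.5 and 24.5 CPM on 10, 1 and 4 UMIs, below the astrocyte-like class in every library, and Notch1 at 188, 205 and 98.2 CPM.

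Myeloid cells outside the named classes carried Notch genes too. A cluster led by Cxcl2 and Il1b (285, 462 and 124 cells), with neutrophil markers, held Notch2 at 84.5, 114 and 393 CPM on 51, 140 and 86 UMIs and Notch1 at 166, 151 and 160 CPM. A cluster led by Hmox1 and Spp1 (622, 727 and 8 cells) held Jag1 at 32.8 and 16.4 CPM in the tumours, above the microglia-like class in both.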
